A study of Mus musculus with 6 samples.

Results

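Collagens, laminins, integrins and 6 further matrix genes (Fn1, Sparc, Nid1, Nid2, Hspg2 and Agrn) were followed in Neuro2a, a mouse neuroblastoma line, after Fam172a was lowered. The set was defined by gene symbol, with earlier results of these data known, and held 86 of the 24421 genes in the count table. It comprised 44 collagen chains, 11 laminin chains, 25 integrin subunits and the 6 others. The cells, of wild-type genotype per the labels, were seeded on a collagen I coat in all 6 samples. They then received an adenovirus with a control hairpin (ADV-shCtrl, n = 3) or a hairpin against Fam172a (ADV-shFam172a, n = 3), and were harvested at 48 h. The labels do not say whether the samples of a group were separate infections, so the spread behind each p-value is that of these samples and could be technical. Both groups carry virus, no uninfected cells were analysed here, and 1 hairpin per group was used as far as the labels say.

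The comparison asks which matrix and adhesion transcripts differ when Fam172a is lowered. Gene counts summed to between 11250312 and 12820531 per library in ADV-shCtrl and to between 21690467 and 23409319 in ADV-shFam172a, so every ADV-shFam172a library was the deeper one. Fam172a itself stood at 18.6, 19.3 and 19.5 CPM (counts scaled to a common library size with TMM factors) in ADV-shCtrl and at 9.22, 8.28 and 9.22 CPM in ADV-shFam172a (log2 fold change -1.10 ± 0.092, SE, edgeR adjusted p = 2.4e-12). Of 18 sympathoadrenal markers of the line, 16 passed the filter, 9 of them higher and 2 lower (68.8% called, beside 36.1% of all genes), and the level summed over the 18 was 3446 to 3476 CPM in ADV-shCtrl and 3557 to 3666 CPM in ADV-shFam172a. Markers of other cell types summed to 137 to 147 CPM per ADV-shCtrl library for fibroblasts and to a mean of 148 CPM in ADV-shFam172a, of which Pi16 alone had a mean of 98.7 and 100.3 CPM. The sums were 16.6 to 19.5 CPM for endothelium, 0.467 to 1.62 CPM for macrophages, 29.6 to 33.5 CPM for Schwann cells and glia, and 1.80 to 2.87 CPM for epithelium. Of these markers, 2 of 7 tested for fibroblasts and 1 of 1 for macrophages were higher, 1 of 3 for endothelium was lower, and none of 3 for glia or 1 for epithelium was called. The part of other cells in the results was not tested, and in bulk RNA fewer cells of a type and less RNA per cell cannot be told apart. The fibroblast markers Fap and Twist2 and the leukocyte marker Ptprc had 0 counts in every library, but other markers of these lists had counts. Acta2 had a mean of 24.9 CPM in ADV-shCtrl and 30.3 CPM in ADV-shFam172a, and S100a4 3.62 and 5.06 CPM, both called higher. Pdgfrb was at 5.50 and 5.59 CPM and Pdgfra at 4.61 and 3.49 CPM, neither called. The macrophage marker called higher was Cd68, at 0.514 and 1.02 CPM. Rn45s, the ribosomal RNA precursor, was at 492 ± 78.2 CPM (SD, n = 3) in ADV-shCtrl and 985 ± 177 CPM in ADV-shFam172a, and its part in the results below was not tested.

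Collagens, laminins and fibronectin form the matrix outside cells. Network-forming type IV collagen and laminin trimers, each made of an alpha, a beta and a gamma chain, are the scaffold of basement membranes, and perlecan (Hspg2), agrin (Agrn) and nidogens tie the networks together. Integrins, pairs of an alpha and a beta subunit, are the main receptors that hold cells to this matrix and link it to the actin cytoskeleton. Neural crest derived cells use beta1 integrins with collagen and laminin as they migrate and extend processes.

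Sequence before the transcription start is shown for 4 called members. Col6a5 is the collagen with the smallest p-value, Itgb1 the member with the highest level, and Lama5 a laminin chain whose rise held in 16 other settings. Col11a2 is the sole called member found to hold the motif ACGTG in this sequence, and its call was lost in 3 of 16 other settings. The sequences are the 250 bases before the RefSeq start in GRCm38.p6, 5′ to 3′ on the strand of the gene. Capitals mark GGGCGG, the core of a GC box bound by SP factors, and ACGTG or GCGTG, the core of the hypoxia response element, each searched on both strands.
Col6a5, chr9:105960644-105960893, minus strand: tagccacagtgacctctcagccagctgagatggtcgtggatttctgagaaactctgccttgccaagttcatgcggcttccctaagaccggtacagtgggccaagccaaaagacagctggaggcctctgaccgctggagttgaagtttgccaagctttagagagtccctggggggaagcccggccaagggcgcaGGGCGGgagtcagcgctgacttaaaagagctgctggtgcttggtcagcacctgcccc
Itgb1, chr8:128685404-128685653, plus strand: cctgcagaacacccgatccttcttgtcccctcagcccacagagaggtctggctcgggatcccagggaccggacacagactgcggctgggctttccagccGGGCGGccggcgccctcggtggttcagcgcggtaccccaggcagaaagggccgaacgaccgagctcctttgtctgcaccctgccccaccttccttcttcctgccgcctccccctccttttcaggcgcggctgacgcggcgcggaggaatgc
Lama5, chr2:180225860-180226109, minus strand: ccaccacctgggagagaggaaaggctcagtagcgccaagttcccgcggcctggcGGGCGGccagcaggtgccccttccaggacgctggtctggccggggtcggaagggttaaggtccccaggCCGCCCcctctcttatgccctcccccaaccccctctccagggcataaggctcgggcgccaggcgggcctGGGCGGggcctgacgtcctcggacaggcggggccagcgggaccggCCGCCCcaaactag
Col11a2, chr17:34038888-34039137, plus strand: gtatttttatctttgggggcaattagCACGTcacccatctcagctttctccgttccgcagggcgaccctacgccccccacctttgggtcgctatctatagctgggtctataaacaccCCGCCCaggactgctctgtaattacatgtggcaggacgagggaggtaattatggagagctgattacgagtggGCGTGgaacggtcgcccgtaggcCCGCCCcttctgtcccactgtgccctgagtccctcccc
RefSeq windows were found for 62 of the 86 members and for 13 of the 19 members that passed the test below. GGGCGG was found in the windows of 7 of these 13 genes, GCGTG in 5, and ACGTG in 1, Col11a2. Among all 32851 promoter windows of that length, 32.7% held GGGCGG, 28.2% GCGTG and 16.6% ACGTG. These shares are per window, while a member counted if any of its windows held the motif. In longer windows of 300 bases, GGGCGG was found for 68.6% of tested members and 66.7% of higher members, beside 38.2% of all genes with a window. At both lengths the background was not limited to tested genes, so the sets are unlike. Whether members differ from other tested genes in this motif was not tested. The letters are a description and show no binding.

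Of the 86 members, 51 passed the filter on low counts and were tested, beside 12820 of the 24421 genes of the table. The other 35 did not pass, among them 3 with 0 counts in all libraries (Col27a1, Itgam and Itgb8, an upper limit of 0.0291 CPM over the 6 libraries from counting error only). Of the 35, 24 had at most 5 counts in any library, and the highest value was 1.03 CPM, for Col12a1 in ADV-shFam172a replicate 3, where it had 23 counts against 3 to 7 in the other libraries. Itgam shares exon sequence with another gene on the same strand, so its count of 0 is uncertain.

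Levels were compared between genes as CPM per kb of merged exon. Itgb1, the beta subunit shared by most integrins that bind collagen, laminin and fibronectin, was the highest member at a mean of 302 CPM per kb in ADV-shCtrl and 325 CPM per kb in ADV-shFam172a. Col4a2 followed at 82.6 and 86.3 CPM per kb, then Fn1, fibronectin, at 56.5 and 60.8, Lamc1, the common laminin gamma chain, at 56.2 and 52.8, and Itga6, a laminin-binding alpha subunit, at 54.7 and 52.3. Sparc, a collagen-binding matricellular protein, stood at 40.4 and 41.8 CPM per kb, and Col4a1 at 37.5 and 41.6. Col6a5, a long chain of type VI collagen, was at 23.1 and 28.9 CPM per kb, Agrn at 20.5 and 21.2, and Hspg2 at 17.1 and 16.4.

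Several other matrix chains and proteins were low. The fibrillar collagens of connective tissue were nearly absent, with Col1a1 at 8 to 29 counts, Col1a2 at no more than 4 and Col3a1 at no more than 1 per library. Lamb1, the beta chain of many basement membrane laminins, had at most 14 counts per library, and Lamb2 was the sole beta chain tested. Col6a2, a chain found in all type VI trimers, had at most 9 counts. Nid1 was at 9 to 29 counts and Nid2 at no more than 3.

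**Figure D1:**
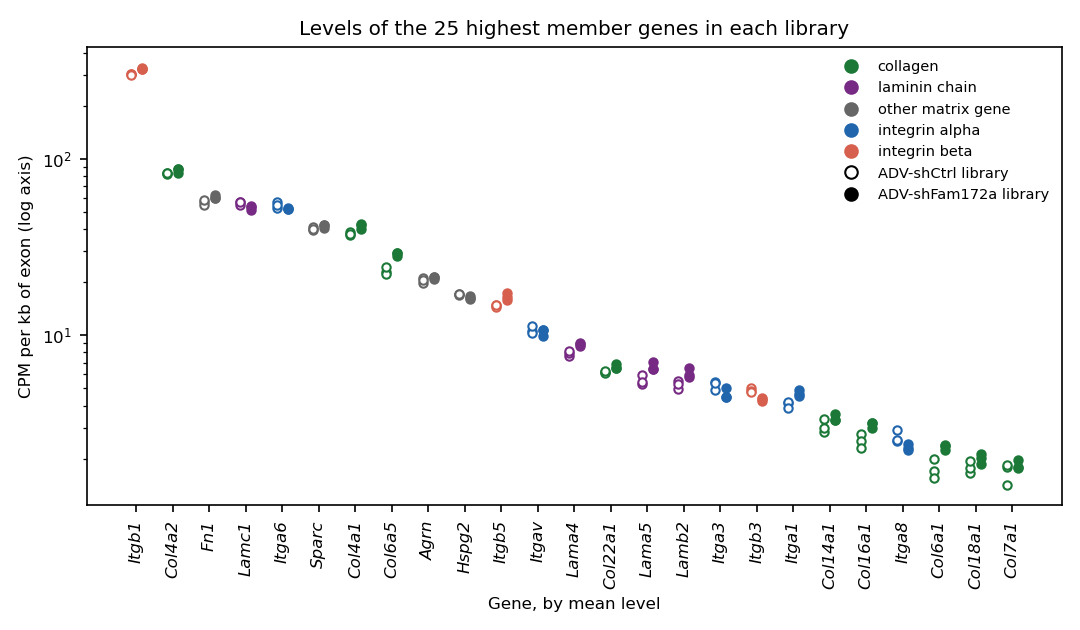
Level of the 25 highest members in each library, as CPM per kb of merged exon on a log axis; open points are the 3 ADV-shCtrl libraries and filled points the 3 ADV-shFam172a libraries, with colours for the families. Itgb1 lies above all others, at a mean of 302 and 325 CPM per kb, and the open and filled points of most genes lie close together.

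Most members were near their control level in ADV-shFam172a, and those that differed did so by small amounts, mostly upward. Of 51 members tested, 15 were higher, 4 were lower and 32 did not pass (edgeR quasi-likelihood test, Benjamini-Hochberg adjusted p under 0.05 over 12820 genes, two-sided). In the whole table, 36.1% of genes were called, 17.5% higher and 18.6% lower, and among the members 37.3% were called, 29.4% higher and 7.84% lower. The median log2 fold change was 0.09 over the members and -0.00030 over all genes tested. No called member reached a 1.5-fold difference, where 2.15% of all genes were called and at least 1.5-fold higher and 0.577% called and at least 1.5-fold lower. In the test against a 1.5-fold change 0 members passed, beside 0.577% of all genes. When 1 library was left out, 11 to 15 members were higher and 0 to 3 lower. The CPM ranges of the groups did not overlap for 26 members, 20 of them higher and 6 lower, beside 46.0% of all genes (22.5% higher and 23.5% lower). By level, 9 of the 16 members of at least 50 CPM were called, and 0 of the 11 under 2 CPM, beside 53.3% and 7.65% of all genes at those levels. Between these, 5 of 14 members of 2 to 10 CPM were called (35.7%, beside 18.8% of all genes). At 10 to 50 CPM 5 of 10 were called (50%, beside 33.8% of all genes).

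The rises of 7 members passed the test under all 16 other settings of scaling, filter, test and libraries (the test against a 1.5-fold change is apart), among them Col6a5, Lama5, Itga1, Itgb1, Itgb5 and Lama4. None of the 4 falls did. Thinned to the depth of the smallest library, 14 members were higher and 2 lower, and with upper quartile scaling 17 and 2. Members had longer and more GC-rich transcripts than the table (median 7.01 kb of exon and 55.3% GC, against 4.39 kb and 50.4%). After a correction for length and GC their median was 0.03, with 12 higher and 7 lower. The table moved the same way under that correction, from 2241 higher and 2386 lower genes to 1898 and 2634, and from a median of -0.00030 to -0.02.

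**Figure D2:**
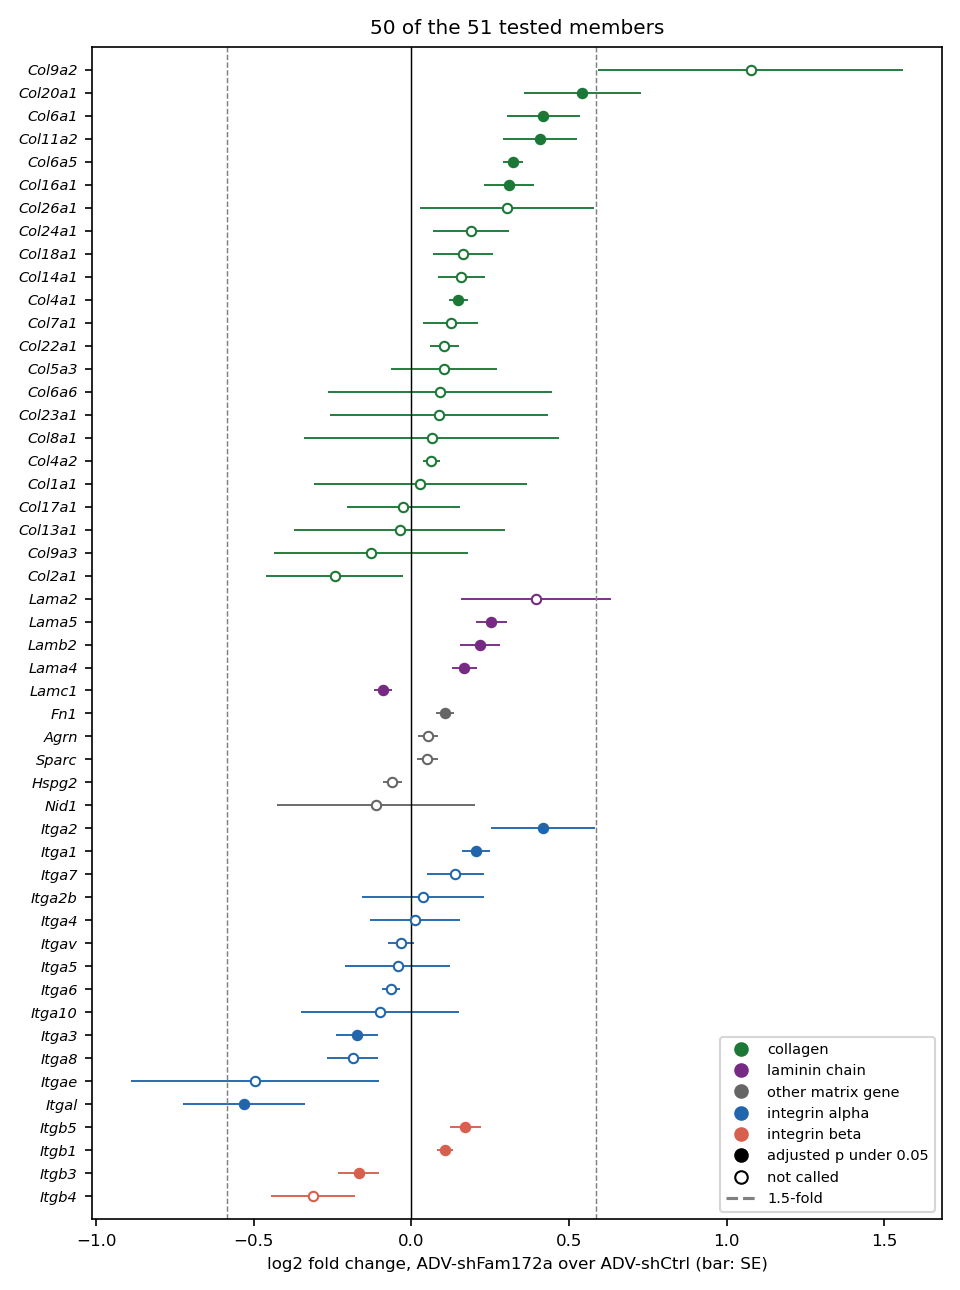
Log2 fold change of ADV-shFam172a over ADV-shCtrl for 50 of the 51 tested members, by family; bars are SE, filled points passed the test and dashed lines mark a 1.5-fold difference. Collagens and laminins lie mostly to the right of 0, integrins on both sides, and the filled points lie within the dashed lines.

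Among the collagens, 6 of 23 tested were higher (26.1%, beside 17.5% of all genes) and none lower. Col6a5 (ENSMUSG00000091345.9, chr9:105856078-105960643, minus strand, GRCm38) had the smallest p-value of the set. Its level was 214, 209.9 and 229 CPM in ADV-shCtrl and 275, 275 and 266 CPM in ADV-shFam172a. All 3 ADV-shFam172a libraries were above all 3 controls, at a log2 fold change of 0.32 ± 0.032 (SE, edgeR adjusted p = 2.6e-10). Col6a1, the chain that pairs with others in type VI trimers, was at 7.46, 6.78 and 8.77 CPM and then 10.3, 10.5 and 9.80 CPM (0.42 ± 0.12, edgeR adjusted p = 0.0042). Without ADV-shCtrl replicate 2 it was at 0.33 with edgeR adjusted p = 0.055. Among the low type VI chains, Col6a6 had 8 to 27 counts per library and was not called (0.09 ± 0.36, edgeR adjusted p = 0.87).

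The type IV chains were the most abundant collagens. Col4a1 (ENSMUSG00000031502.11, chr8:11198423-11312826, minus strand) was at 286, 275 and 279.8 CPM in ADV-shCtrl and 318, 316 and 298 CPM in ADV-shFam172a. The groups did not overlap, and the log2 fold change was 0.15 ± 0.031 (edgeR adjusted p = 1.7e-04). With the length and GC correction and a replicate block together it was at 0.07 (edgeR adjusted p = 0.056). Col4a2 (ENSMUSG00000031503.13, chr8:11312805-11449287, plus strand) was at 549.8, 542 and 548 CPM and then 578, 582 and 553 CPM. Its groups did not overlap either, but it did not pass (0.06 ± 0.027, edgeR adjusted p = 0.067). It passed without ADV-shFam172a replicate 3, at 0.09 (edgeR adjusted p = 0.015), with upper quartile scaling and with the stricter filter (0.08 and 0.07, edgeR adjusted p = 0.024 and 0.046), and after the correction for length and GC its sign turned, at -0.04 (edgeR adjusted p = 0.18). Both genes start head to head, and their annotated ends overlap by 22 bases, which are shown because reads there cannot be assigned to either gene without strand.
Col4a1 and Col4a2, chr8:11312805-11312826, plus strand: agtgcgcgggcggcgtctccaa
As a level per kb, Col4a1 was 46.1%, 45.03% and 45.3% of Col4a2 in ADV-shCtrl and 48.7%, 48.2% and 47.8% in ADV-shFam172a. The other 4 type IV chains had at most 14 counts in any library.

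Col11a2, a fibrillar collagen chain of cartilage, was at 7.37, 7.17 and 8.86 CPM in ADV-shCtrl and 10.98, 9.31 and 10.7 CPM in ADV-shFam172a (0.41 ± 0.12, edgeR adjusted p = 0.0057). Without ADV-shCtrl replicate 2 it was at 0.35 (edgeR adjusted p = 0.052), and after the length and GC correction at 0.27 (edgeR adjusted p = 0.068). The fibril-associated collagens Col16a1 and Col20a1 were also higher. Col16a1 was at 18.5, 16.9 and 15.5 CPM and then 20.3, 21.5 and 21.4 CPM (0.31 ± 0.080, edgeR adjusted p = 0.0021). With the block and the correction together it was at 0.20 (edgeR adjusted p = 0.0502). Col20a1 was low, at 3.69, 3.66 and 2.30 CPM and then 3.7998, 4.93 and 5.39 CPM. It had the largest difference of the called members (0.54 ± 0.19, edgeR adjusted p = 0.020), with ADV-shFam172a replicate 1 close to 2 controls. It lost its call without ADV-shCtrl replicate 3 (0.36, edgeR adjusted p = 0.18) and without ADV-shFam172a replicate 3 (0.44, edgeR adjusted p = 0.085), and with DESeq2 (0.55, DESeq2 adjusted p = 0.063).

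The 17 collagens that did not pass included Col22a1 at 56.2 to 63.4 CPM and Col14a1 at 19.9 to 25.2 CPM, both fibril-associated, with log2 fold changes of 0.10 and 0.16. Col7a1, the anchoring fibril collagen, was at 0.12, Col18a1, the source of endostatin, at 0.16, and the transmembrane collagens Col13a1, Col17a1 and Col23a1 at -0.04, -0.03 and 0.09. Without ADV-shCtrl replicate 3, Col14a1 joined the called members. Col9a2 had the largest fitted difference among all members tested (1.08 ± 0.48), from 2 to 20 counts per library, and did not pass (edgeR adjusted p = 0.080). Summed over 44 collagens, levels were 1219, 1196 and 1234 CPM in ADV-shCtrl and 1363, 1369 and 1310.2 CPM in ADV-shFam172a. All 3 ADV-shFam172a sums were above the controls, and type IV chains made up 827 of the mean of 1216 CPM and 882 of 1347 CPM.

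Laminin chains were called most often of the families, at 5 of 6 tested. Of these, 4 were higher and 1, the abundant gamma chain, lower (66.7% and 16.7%, beside 17.5% and 18.6% of all genes). Lama4, Lama5 and Lamc1 had means above 50 CPM, a level at which 53.3% of all genes were called. Lamc1 (ENSMUSG00000026478.14, chr1:153218922-153332786, minus strand) was lower, at 473, 454 and 468 CPM in ADV-shCtrl and 425, 448 and 439 CPM in ADV-shFam172a. Its log2 fold change was -0.09 ± 0.028 (edgeR adjusted p = 0.012). The call was lost without ADV-shCtrl replicate 1 (-0.08, edgeR adjusted p = 0.057), without ADV-shCtrl replicate 3 (-0.08, edgeR adjusted p = 0.055) and without ADV-shFam172a replicate 1 (-0.07, edgeR adjusted p = 0.094).

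Lama5, an alpha chain of many basement membranes, was at 67.9, 60.4 and 62.3 CPM and then 73.8, 79.99 and 73.05 CPM (0.25 ± 0.048, edgeR adjusted p = 6.1e-05). After the length and GC correction the Lama5 difference was 0.12, still called. Lama4, the alpha chain of vessel and nerve laminins, was at 91.9, 95.2 and 98.3 CPM and then 107, 104 and 109 CPM (0.17 ± 0.039, edgeR adjusted p = 7.7e-04). In all of these the 3 ADV-shFam172a libraries were above the controls.

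Lamb2, a beta chain of synaptic and vessel laminins, was at 33.5, 30.1 and 32.2 CPM and then 36.4, 35.2 and 39.8 CPM (0.22 ± 0.063, edgeR adjusted p = 0.0057). Its call was lost without ADV-shCtrl replicate 2 (0.17, edgeR adjusted p = 0.067) and after the length and GC correction (0.13, edgeR adjusted p = 0.099). Lama2, the muscle laminin alpha chain, had 19 to 56 counts per library and did not pass (0.39 ± 0.24, edgeR adjusted p = 0.20). Lamc1 made up most of the laminin counts, and the summed level was 668 ± 14.3 CPM (SD, n = 3) in ADV-shCtrl and 673 ± 12.8 CPM in ADV-shFam172a, with overlapping groups. Per kb, Lama5 went from 9.91% ± 0.442 to 12.6% ± 0.444 of Lamc1, Lama4 from 14.0% ± 0.613 to 16.8% ± 0.706 and Lamb2 from 9.34% ± 0.304 to 11.6% ± 0.828. None of these 3 ratios overlapped between the groups, and they share Lamc1, so they are not independent. Lama5 was 70.9% ± 6.41 of Lama4 in ADV-shCtrl and 75.1% ± 5.46 in ADV-shFam172a, with overlapping groups.

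**Figure D3:**
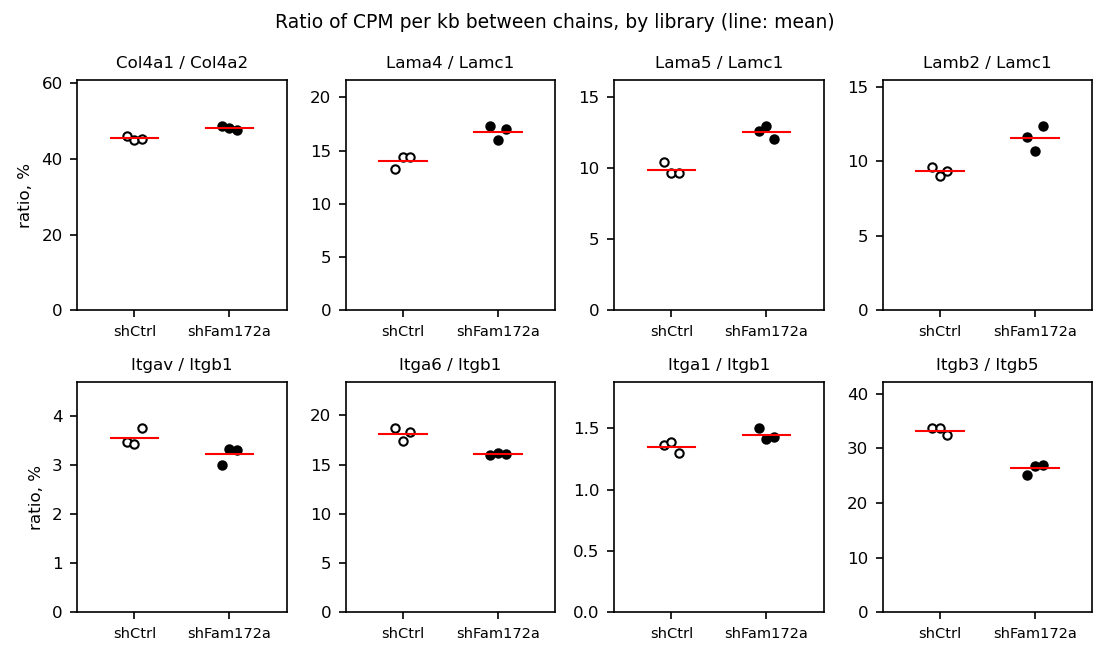
Ratio between 8 pairs of chains, as percent of the second gene's CPM per kb, in each ADV-shCtrl (open) and ADV-shFam172a (filled) library; red lines are means. The 3 laminin ratios are higher in every ADV-shFam172a library, and Itga6 to Itgb1, Itgav to Itgb1 and Itgb3 to Itgb5 are lower in every one. The pairs were chosen with the values known, and no test was made. Lama5 to Lama4, Itgb5 to Itgb1 and Itga3 to Itga6 were also computed, overlapped between the groups and are not shown.

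Of the 5 other matrix genes tested, Fn1, Hspg2, Agrn and Sparc had means above 50 CPM. At that level 53.3% of all genes were called. Fn1 was the one called of the 5 (20%, beside 36.1% of all genes). It was at 662, 638 and 679 CPM in ADV-shCtrl and 697, 729 and 704 CPM in ADV-shFam172a (0.11 ± 0.028, edgeR adjusted p = 0.0024), and after the length and GC correction it was at 0.03 (edgeR adjusted p = 0.40). Its exons overlap 292 bases of an antisense gene. Hspg2, the basement membrane proteoglycan perlecan, was at 245, 242 and 246 CPM and then 233, 240.1 and 231 CPM. Its groups did not overlap, but the difference did not pass (-0.06 ± 0.030, edgeR adjusted p = 0.11). After the length and GC correction Hspg2 was at -0.22 (edgeR adjusted p = 4.3e-08). Agrn, which clusters receptors at the neuromuscular junction, was at 195, 184 and 192 CPM and then 199, 198 and 194 CPM (0.05 ± 0.032, edgeR adjusted p = 0.21). After the correction its sign turned, at -0.04 (edgeR adjusted p = 0.245). Sparc was at 156, 150.2 and 153 CPM and then 161, 160.4 and 154 CPM (0.05 ± 0.034, edgeR adjusted p = 0.26). Nid1 was not called (-0.11 ± 0.31, edgeR adjusted p = 0.81).

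Of 17 integrin subunits tested, 4 were higher and 3 lower (23.5% and 17.6%, near the 17.5% and 18.6% of all genes). Itgb1 (ENSMUSG00000025809.15, chr8:128685654-128733200, plus strand) was at 1239.7, 1232 and 1223 CPM in ADV-shCtrl and 1338, 1315 and 1324 CPM in ADV-shFam172a. The groups did not overlap, and the difference was 0.11 ± 0.025 (edgeR adjusted p = 7.0e-04). Of the 3 collagen receptor alpha subunits tested, which pair with Itgb1, 2 were higher (66.7%, beside 17.5% of all genes) and 1 was not called. Itga1 was at 76.8, 77.8 and 72.3 CPM and then 91.3, 84.4 and 86.2 CPM (0.21 ± 0.044, edgeR adjusted p = 2.7e-04). Its exons overlap those of a predicted gene on the same strand. After the length and GC correction it was at 0.14 and still called.

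Itga2, the other collagen-binding subunit, was low, at 4.03, 4.05 and 2.84 CPM and then 5.14, 4.67 and 4.85 CPM (0.42 ± 0.17, edgeR adjusted p = 0.046). Its call was lost under 10 of 16 other settings. Among them were all but 1 of the settings that left out a library: 0.51 without ADV-shCtrl replicate 2 (edgeR adjusted p = 0.053), 0.28 without ADV-shCtrl replicate 3 (edgeR adjusted p = 0.27), and 0.38, 0.45 and 0.42 without ADV-shFam172a replicates 1, 2 and 3 (edgeR adjusted p = 0.11, 0.052 and 0.066). Itga10 was not called (-0.10 ± 0.25, edgeR adjusted p = 0.79), and Itga11 had at most 18 counts per library. The exons of Itga10 overlap a predicted gene on the same strand by 1739 bases, so its count is uncertain.

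Of the 3 laminin-binding alpha subunits tested, 1 was lower (33.3%, beside 18.6% of all genes) and none higher (beside 17.5%). Itga6 was at 512, 475 and 495 CPM in ADV-shCtrl and 472, 471 and 472 CPM in ADV-shFam172a, below all controls, and did not pass (-0.07 ± 0.029, edgeR adjusted p = 0.0697). It passed without ADV-shCtrl replicate 2 (-0.09, edgeR adjusted p = 0.018) and after the length and GC correction (-0.10, edgeR adjusted p = 0.0030). As a level per kb, Itga6 was 18.1% ± 0.639 (SD, n = 3) of Itgb1 in ADV-shCtrl and 16.1% ± 0.116 in ADV-shFam172a, with no overlap. Itga3 was lower, at 28.0, 31.1 and 30.5 CPM and then 25.4, 28.6 and 25.4 CPM, with ADV-shFam172a replicate 2 above 1 control (-0.17 ± 0.068, edgeR adjusted p = 0.044). Its call was lost without ADV-shCtrl replicates 2 (-0.14, edgeR adjusted p = 0.20) and 3 (-0.16, edgeR adjusted p = 0.13), and without ADV-shFam172a replicates 1 (-0.14, edgeR adjusted p = 0.13) and 3 (-0.14, edgeR adjusted p = 0.125). It was also lost with upper quartile scaling, DESeq2, no filter and thinning (adjusted p of 0.055 to 0.13). Itga7, the muscle laminin receptor subunit, was not called (0.14 ± 0.091, edgeR adjusted p = 0.24).

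Itgb3 and Itgb5, which both pair with Itgav, went in opposite directions. Itgb5 was at 53.1, 51.2 and 52.4 CPM in ADV-shCtrl and 61.8, 58.5 and 56.1 CPM in ADV-shFam172a (0.17 ± 0.050, edgeR adjusted p = 0.0060). Itgb3 was at 29.7, 28.6 and 28.2 CPM and then 25.8, 26.0 and 25.2 CPM (-0.17 ± 0.065, edgeR adjusted p = 0.040). Neither overlapped its controls, and the Itgb3 level per kb went from 33.2% ± 0.752 (SD, n = 3) to 26.3% ± 1.06 of that of Itgb5. The Itgb3 call was lost when any 1 of the 6 libraries was left out, with log2 fold changes of -0.18 to -0.14 and edgeR adjusted p of 0.062 to 0.14. It was also lost with upper quartile scaling, DESeq2, no filter, thinning and the replicate block (adjusted p of 0.051 to 0.13). Itgav itself, the vitronectin receptor alpha subunit, was at 111 to 121 CPM and 106 to 116 CPM (-0.03 ± 0.040, edgeR adjusted p = 0.56).

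Of the remaining subunits, Itgal, known from leukocytes, was lower from a low level, at 3.52, 3.27 and 3.90 CPM and then 2.22, 2.49 and 2.65 CPM (-0.53 ± 0.19, edgeR adjusted p = 0.028). Ptprc, which marks leukocytes, had 0 counts, and Itgb2, the partner of Itgal, had at most 16 per library. The Itgal call was lost without ADV-shCtrl replicates 1 (-0.54, edgeR adjusted p = 0.062) and 3 (-0.46, edgeR adjusted p = 0.12), and without ADV-shFam172a replicates 1 (-0.46, edgeR adjusted p = 0.088) and 2 (-0.54, edgeR adjusted p = 0.051), and with DESeq2 (-0.53, DESeq2 adjusted p = 0.0885). Itga8, which binds nephronectin, was at 18.6 to 21.3 CPM and 16.5 to 17.9 CPM and did not pass (-0.19 ± 0.081, edgeR adjusted p = 0.067). The laminin receptor subunit Itgb4 was at -0.31 ± 0.13 (edgeR adjusted p = 0.063), and it was called without ADV-shCtrl replicate 3, without ADV-shFam172a replicate 3, and with the length and GC correction, alone or with the replicate block. The fibronectin receptor subunits Itga4 and Itga5 were at 0.01 and -0.04, and Itga2b at 0.04, all with edgeR adjusted p of at least 0.87.

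**Figure D4:**
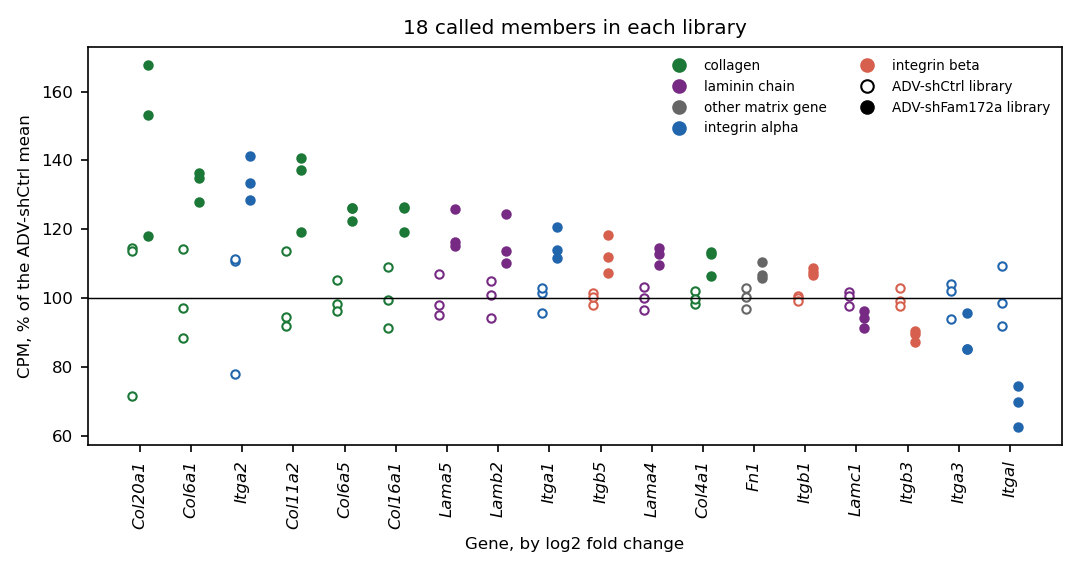
Called members (18 of 19) in each library, as percent of the ADV-shCtrl mean CPM of the gene; open points are ADV-shCtrl and filled points ADV-shFam172a. The groups overlap for Itga3 alone, and the controls of the low genes Col20a1 and Itga2 are the most spread.

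Plod2, P4ha2 and P4ha1, enzymes that modify collagen, had larger fold changes than any called collagen, with P4ha1 at a log2 fold change of 0.81. In a list of 32 genes of collagen folding, secretion and crosslinking, 24 were tested, 10 rose and 2 fell (41.7% and 8.33%, beside 17.5% and 18.6% of all genes), with a median log2 fold change of 0.10. Plod2, a lysyl hydroxylase, went from 122 ± 2.89 to 263 ± 3.03 CPM (1.11 ± 0.032, edgeR adjusted p = 3.5e-26), and P4ha2, a prolyl hydroxylase, from 108 ± 6.16 to 254 ± 7.52 CPM (1.23 ± 0.037, edgeR adjusted p = 4.8e-26). P4hb, the shared beta subunit of prolyl hydroxylases, went from 595 ± 4.68 CPM (SD, n = 3) to 836 ± 3.91 CPM (0.49 ± 0.026, edgeR adjusted p = 3.8e-18). The 2 that fell were Loxl3, a lysyl oxidase (-0.39 ± 0.11, edgeR adjusted p = 0.0051), and Bmp1, which trims procollagen (-0.18 ± 0.061, edgeR adjusted p = 0.021). The Bmp1 call was lost without ADV-shCtrl replicates 2 (edgeR adjusted p = 0.054) and 3 (edgeR adjusted p = 0.16), where it was at -0.18 and -0.13, and without ADV-shFam172a replicate 3 (-0.14, edgeR adjusted p = 0.093). It was also lost with DESeq2 and when thinned (adjusted p = 0.072 and 0.125).

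Of 30 genes of integrin activation and focal adhesion, 28 were tested, 6 rose and 8 fell (21.4% and 28.6%, beside 17.5% and 18.6% of all genes), with a median of -0.03. Vcl, vinculin, went from 193 ± 3.60 CPM (SD, n = 3) to 249.9 ± 2.85 CPM (0.37 ± 0.031, edgeR adjusted p = 1.6e-12), and Flna, the actin crosslinker filamin A, from 873 ± 6.18 to 1004 ± 11.9 CPM (0.20 ± 0.025, edgeR adjusted p = 4.1e-08). Rap1b, the small GTPase that switches integrins on, fell from 530.0 ± 7.35 to 465 ± 5.54 CPM (-0.19 ± 0.027, edgeR adjusted p = 6.1e-07), and Vasp, which promotes actin filament growth, from 159 ± 0.813 to 137 ± 3.91 CPM (-0.22 ± 0.034, edgeR adjusted p = 3.1e-06). These 4 calls held in the same 16 other settings, and none of the 4 genes reached a 1.5-fold difference.

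Among 17 other receptors for matrix, 12 were tested, 2 rose and 1 fell (25% called, beside 36.1% of all genes), with a median of 0.10. Ddr1, a collagen receptor tyrosine kinase, went from 48.1 ± 5.07 CPM (SD, n = 3) to 63.1 ± 1.79 CPM (0.39 ± 0.054, edgeR adjusted p = 2.8e-07), and Dag1, the laminin and agrin receptor dystroglycan, from 121 ± 8.14 to 145 ± 3.91 CPM (0.26 ± 0.039, edgeR adjusted p = 1.1e-06). Rpsa, a ribosomal protein also described as a laminin receptor, was at 1334 ± 45.3 and 1252 ± 46.4 CPM (-0.09 ± 0.028, edgeR adjusted p = 0.0090). Its call was lost without ADV-shCtrl replicate 2 (-0.06, edgeR adjusted p = 0.11) and without ADV-shFam172a replicate 2 (-0.07, edgeR adjusted p = 0.079).

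Of 39 other matrix proteins, 24 were tested, 7 rose and 2 fell (37.5% called, near the 36.1% of all genes), with a median of 0.11. Eln, elastin, went from 14.4 ± 2.20 CPM (SD, n = 3) to 24.2 ± 0.980 CPM (0.75 ± 0.085, edgeR adjusted p = 4.7e-09), and Fbln2, which binds fibronectin and basement membrane, from 264 ± 11.1 to 340.4 ± 10.8 CPM (0.36 ± 0.032, edgeR adjusted p = 8.2e-12). Thbs3, a thrombospondin, was at -0.25 ± 0.059 (edgeR adjusted p = 7.3e-04), and Npnt, the ligand of the integrin made of Itga8 and Itgb1, at -0.32 ± 0.089 (edgeR adjusted p = 0.0042). Of 24 matrix proteases and inhibitors, 19 were tested, 4 rose and 1 fell (26.3% called, beside 36.1% of all genes). The median of this list was 0.04. Timp4, a metalloprotease inhibitor, went from 0.829 ± 0.247 to 2.64 ± 0.327 CPM (1.65 ± 0.28, edgeR adjusted p = 1.1e-05). Mmp17, a membrane-bound metalloprotease, was at -0.24 ± 0.079 (edgeR adjusted p = 0.014). It lost its call without ADV-shCtrl replicate 3 (-0.21, edgeR adjusted p = 0.075) and without ADV-shFam172a replicate 3 (-0.20, edgeR adjusted p = 0.057), and with DESeq2 (DESeq2 adjusted p = 0.055). Adam9, the most abundant gene of that list, was not called (0.05 ± 0.030, edgeR adjusted p = 0.23).

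**Figure D5:**
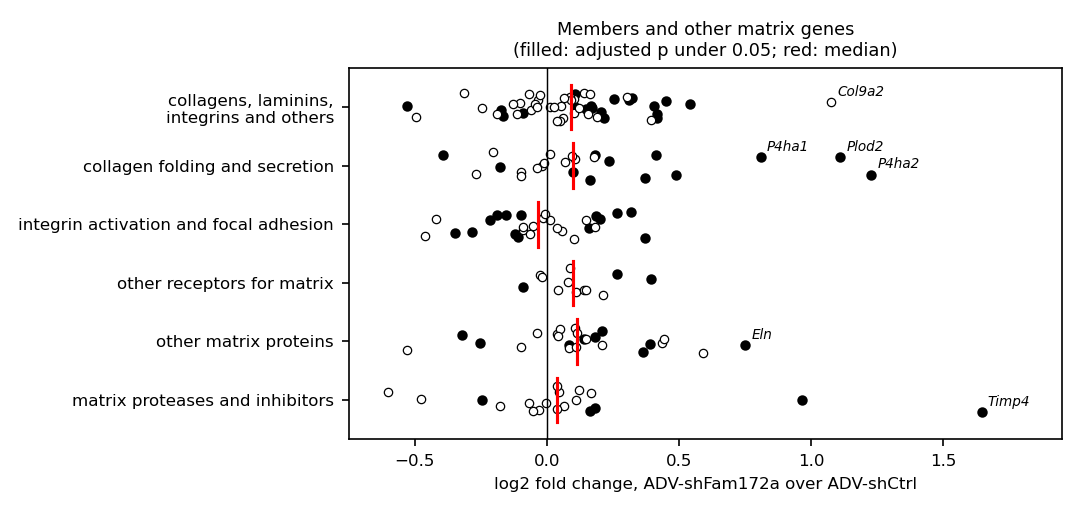
Log2 fold change of the 51 tested members and of the tested genes in 5 lists of other matrix and adhesion genes; filled points passed the test, red lines are medians, and most genes beyond 0.7 are named. The medians lie between -0.03 and 0.11, and P4ha2, Plod2, P4ha1, Eln and Timp4 lie to the right of every called member.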

How the data were processed

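RNA from 6 Neuro2a samples (3 per group) was sequenced as paired ends on a NovaSeq instrument, per the labels' protocols. The authors deposited raw counts for each gene symbol, without normalization. Per the submitters' processing notes, HISAT2 2.0.5, HTSeq and mm10 were used. Annotation and strand setting are not stated, so reads of genes with overlapping exons on opposite strands may not be told apart. Tables of single samples matched the series table. The 5 rows that name no gene were left out. Pairs in no gene were 16.4% to 16.6% of a library in ADV-shCtrl and 17.2% to 17.9% in ADV-shFam172a.

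Genes were filtered with filterByExpr by group (12820 of 18128 with any count), normalized with TMM factors and compared by the quasi-likelihood test of edgeR 4.0.16 (robust glmQLFit, then glmQLFTest, group as the sole term) in R 4.3.3. The SE is the size of the log2 fold change divided by the square root of F. Exon lengths, GC and positions are from GENCODE M21 (GRCm38), which matched 99.5% of tested genes. Alternatives used DESeq2 1.42.0 and limma 3.58.1 among others. The test was checked on simulated data. No pair of libraries agreed within sampling noise (chi-square per degree of freedom of 1.61 or more). Full values are given for the 12 called members of largest change, the 10 members of highest level per kb and the called members of the less common sign, each rule for change with a mean of at least 1 CPM. Itgb5 and Lama4, the other called members, and uncalled members given with statistics go beyond this rule and were added with their values known. Some genes these rules name are not reported here. In the 5 further lists the named genes are the 2 of smallest p in each direction and the most abundant, and P4ha1 goes beyond this rule. The members and lists were chosen with earlier results of these data known.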

Additional observations from a re-analysis of the deposited data

How the results depend on the processing

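Fam172a kept its direction and call in all 16 other settings, at -1.13 to -1.05. The number of genes called was 4627, and 3561 to 4657 in the other settings. The 15 higher members became 0 in the test against a 1.5-fold change and 10 to 17 in the others (11 to 15 with 1 library left out). The 4 lower members were 2 with upper quartile scaling, 2 without the filter, 2 when thinned, 1 with DESeq2, 7 with the length and GC correction, 7 with that and the replicate block, and 0 against a 1.5-fold change. With 1 library left out they ranged from 0 to 3: 0 without ADV-shFam172a replicate 1, 1 without ADV-shCtrl replicate 1 or 3, and 2 without ADV-shFam172a replicate 2. The members median (log2 fold change) of 0.09 was 0.033 with the length and GC correction, 0.027 with it and the block, and 0.071 to 0.14 with 1 library left out, the highest without ADV-shCtrl replicate 3. With the correction, and with it and the block, Col4a2 (-0.041 and -0.041) and Agrn (-0.0438 and -0.0438) changed sign, and the cause was not tested. In the further lists, DESeq2 called 1 lower gene of collagen folding and, of proteases, 2 higher and 0 lower, and upper quartile scaling 4 higher receptors. With 1 library left out the ranges were 1 to 2 lower for collagen folding, 2 to 4 higher and 0 to 2 lower for proteases, and 2 to 4 higher and 0 to 1 lower for receptors. Replicate numbers did not pair the samples (correlations of same-numbered deviations -0.0054, -0.0038 and -0.0096). With the replicate block 14 members were higher and 3 lower, Itga2 and Itgb3 losing their calls, and the number of genes called was 4468. Of the members under 2 CPM, 0 of 11 were called, beside 7.65% of all genes at that level. Members of 2 to 10 and of 10 to 50 CPM were called at 35.7% and 50%, beside 18.8% and 33.8% of all genes.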
